A study of Mus musculus with 6 samples.

Results

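The genes described here are those of the Arp2/3 complex and of the proteins that switch it on, hold it back or take its branches apart. They are 33 genes, chosen by symbol for their role in this machinery, out of 41214 gene identifiers in the count files. All 33 were found in the files. By role they comprise 10 subunit genes, 4 genes of the WASP proteins and their partners, 9 genes of the WAVE regulatory complex, 3 other activators or nucleators, 5 inhibitors or branch removers and 2 upstream GTPases. The low-count filter kept 30 of them for testing and left out Actr3b, Wasf3 and Gmfg.

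Messenger RNA was sequenced from epidermis of C57BL/6 mice at postnatal day 4, freed from skin with trypsin. There were 3 wild type (wt) libraries and 3 ARPC4 knockout (ko) libraries. The ko titles carry the mark hom, and the labels name neither the promoter that drives a deletion, nor the deleted part of Arpc4, nor whether the replicates came from separate animals. The series title speaks of loss of the Arp2/3 complex in the epidermis, and the comparison asks how transcripts of the other parts of this machinery stood when ARPC4 was targeted. Values given for a group below are in the order of replicates 1, 2 and 3. These numbers stand for marks in the titles: replicates 1 and 2 carry I and II and a date, which is the same for all 4, while replicate 3 of both groups carries the mark Tryp and no date. Whether that mark and date stand for a batch is not given, and any value that rests on replicate 3 of a group rests on a library with its own kind of title.

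The Arp2/3 complex starts a new actin filament on the side of an existing one, which builds the branched networks at the leading edge of cells, at cell junctions and around vesicles. The actin-related proteins Arp2 and Arp3, encoded by Actr2 and Actr3, form the start of the new filament, and the proteins encoded by Arpc1a to Arpc5l hold them on the mother filament. ARPC2 and ARPC4 form the core of the complex. The complex is idle until a protein of the WASP or WAVE family, itself released by the GTPases Cdc42 and Rac1, delivers actin to it. Several of these proteins come in 2 forms made from related genes, and only 1 form enters any 1 complex.

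Because so many members have a close relative, it mattered whether single-end reads of 51 bases could tell them apart. For each pair of relatives the 51-base stretch of the coding sequence in which they are most alike was taken from the GENCODE M21 transcripts (GRCm38, the same assembly as mm10). It is printed 5′ to 3′ for the 3 pairs of subunit genes and for Cyfip1 and Cyfip2, with capitals at the bases that differ between partners.
Arpc1a: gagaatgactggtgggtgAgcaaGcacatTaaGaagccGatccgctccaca
Arpc1b: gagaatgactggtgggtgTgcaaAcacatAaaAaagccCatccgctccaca
Arpc5: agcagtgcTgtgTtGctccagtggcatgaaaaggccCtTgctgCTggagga
Arpc5l: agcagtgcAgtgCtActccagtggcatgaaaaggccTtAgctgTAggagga
Actr3: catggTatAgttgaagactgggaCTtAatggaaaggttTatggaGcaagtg
Actr3b: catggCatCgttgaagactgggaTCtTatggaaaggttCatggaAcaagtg
Cyfip1: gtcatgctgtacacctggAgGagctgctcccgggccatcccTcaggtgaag
Cyfip2: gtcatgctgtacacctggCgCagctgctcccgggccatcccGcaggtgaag
The Arpc1 stretches span exons 4 and 5 at chr5:145096264-145097255 and chr5:145123781-145124626, both on the plus strand. The Arpc5 stretches span exons 3 and 4 at chr1:152771508-152774277 for Arpc5 and chr2:39013867-39015075 for Arpc5l, also on the plus strand. Those of Arp3 lie in exon 4, on the minus strand at chr1:125411312-125411362 for Actr3 and on the plus strand at chr5:25811929-25811979 for Actr3b. The Cyfip stretches span exons 4 and 5, at chr7:55873479-55873662 on the plus strand for Cyfip1 and chr11:46284253-46286111 on the minus strand for Cyfip2.

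Even in these most similar stretches the Arpc1 genes differed at 5 of 51 bases, the Arpc5 genes at 7, the Arp3 genes at 7 and the Cyfip genes at 3. Over all 11 pairs examined the fewest differences in any such stretch ran from 3, also for Abi1 and Abi2, to 16 for Wipf2 and Wipf1. The longest run of bases shared by a pair was 24, in Cyfip1 and Cyfip2, so no 51-base read from these coding sequences can match both genes of a pair exactly. Relatives that are pseudogenes were closer. Of the 51-base words in the transcripts of Actr3, 25.1% also occur in its pseudogene Gm8822, which itself was counted at 0.105 to 0.348 CPM. CPM are counts per 1000000 counts in the genes kept for testing, with library sizes scaled by TMM. Reads with several alignments, 32.4 to 40.9% of all reads listed per library, were not assigned to genes, so the level of Actr3 may be incomplete.

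Each library held between 17561294 and 22659511 counts assigned to genes. Keratinocyte markers were the most abundant of the marker lists, with 8 suprabasal genes summing to 84640 to 160470 CPM and 10 basal genes to 2107 to 12028 CPM per library. The basal sum was 7766, 2107 and 10450 CPM in wt and 3360, 4658 and 12028 CPM in ko, so wt replicate 2 held the least and the replicates differed more than the groups. Markers of other cells were present in every group. Leukocyte markers (14 genes) summed to 261, 337 and 549 CPM in wt and 684, 321 and 589 CPM in ko. Fibroblast markers (8 genes) summed to 66.6, 132 and 177 CPM in wt and 581, 760 and 180 CPM in ko, and endothelial markers (8 genes) to 3.74, 3.08 and 4.04 CPM in wt and 19.7, 22.2 and 10.7 CPM in ko. Melanocyte markers (6 genes) summed to 61.6 to 74.0 CPM in wt and 79.5 to 128 CPM in ko. In each of these lists 0 genes were at 0 in all libraries and 0 passed the edgeR test. An unadjusted p under 0.05 was reached by 6 of 8 fibroblast, 7 of 7 tested endothelial and 3 of 6 melanocyte markers, all with higher levels in ko, and by 0 of the leukocyte, basal and suprabasal markers. With edgeR 13.2% of all tested genes reached that level. DESeq2 called 5 fibroblast and 6 endothelial markers and 0 of the other marker lists, beside 4.81% of all tested genes. For limma-voom the number called was 0 in all of these lists. In such bulk samples fewer cells of a type and less RNA per cell cannot be told apart.

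Among the 33 genes, 0 passed the test between ko and wt (edgeR quasi-likelihood, Benjamini-Hochberg adjusted p over 13704 genes, threshold 0.05), where 0.219% of all tested genes did. Their adjusted p ran from 0.345 to 0.990. At an unadjusted p under 0.05 there was 1 member, Actr2, of 30 tested, against 13.2% of all genes. Both DESeq2 and limma-voom called 0 members, each with 1 at that unadjusted level. DESeq2 called 4.81% of all genes. With a term in the edgeR fit for whether the title carries a date, 0 members passed, where 5.17% of all genes did, and in the 4 dated libraries alone 0 members passed, beside 1.58% of all genes. The log2 fold changes of ko over wt were above 0 for 16 members and below 0 for 14, with a median of 0.04, beside 0.02 for all tested genes. They ran from -0.50 for Wasf1 to 0.62 for Wipf1.

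**Figure D1:**
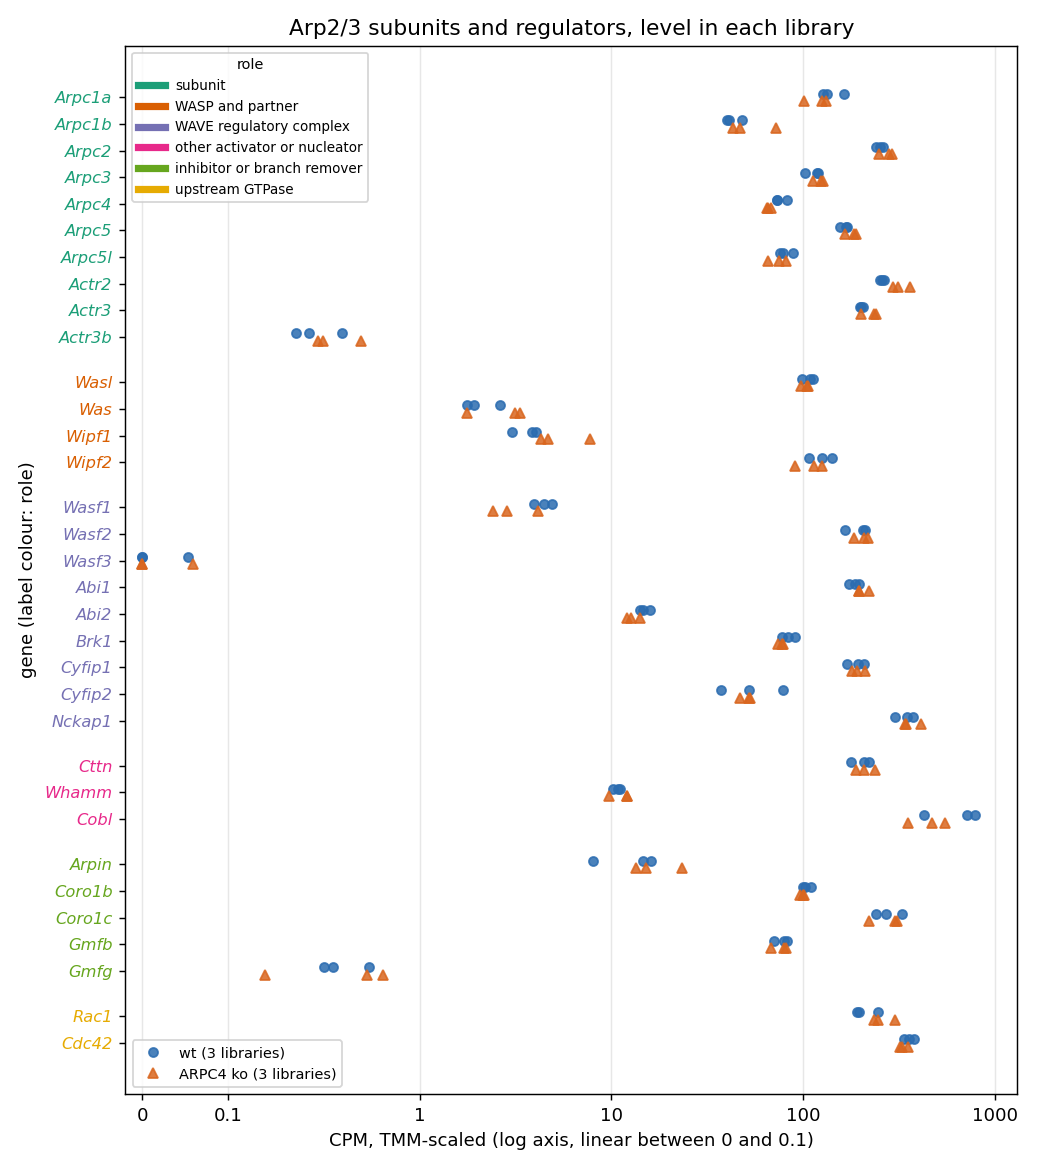
Level of each of the 33 genes in each library, in CPM after TMM scaling, on a logarithmic axis that is linear between 0 and 0.1, with wt as circles and ARPC4 ko as triangles and gene names coloured by role. The symbols of the groups overlap for all genes except Actr2 and Wipf1, where ko lies above wt, and Arpc4, where ko lies below.

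The size of these differences was set beside that of other genes, without a test. The median absolute log2 fold change was 0.13 for the 30 members and 0.20 for all tested genes. Among genes of at least 10 CPM, which take in 27 members and 8355 genes, it was 0.13 and 0.15. The median within-group SD was 0.13 log2 units for those 27 members and 0.20 for the 8355 genes. The 95% interval of the fold change lay inside 2-fold in either direction for 25 of the 30 members and inside 1.5-fold for 19. The 5 whose interval reached past 2-fold were Was, Wipf1, Wasf1, Cobl and Arpin, so for these a change of that size was not excluded by the data.

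**Figure D2:**
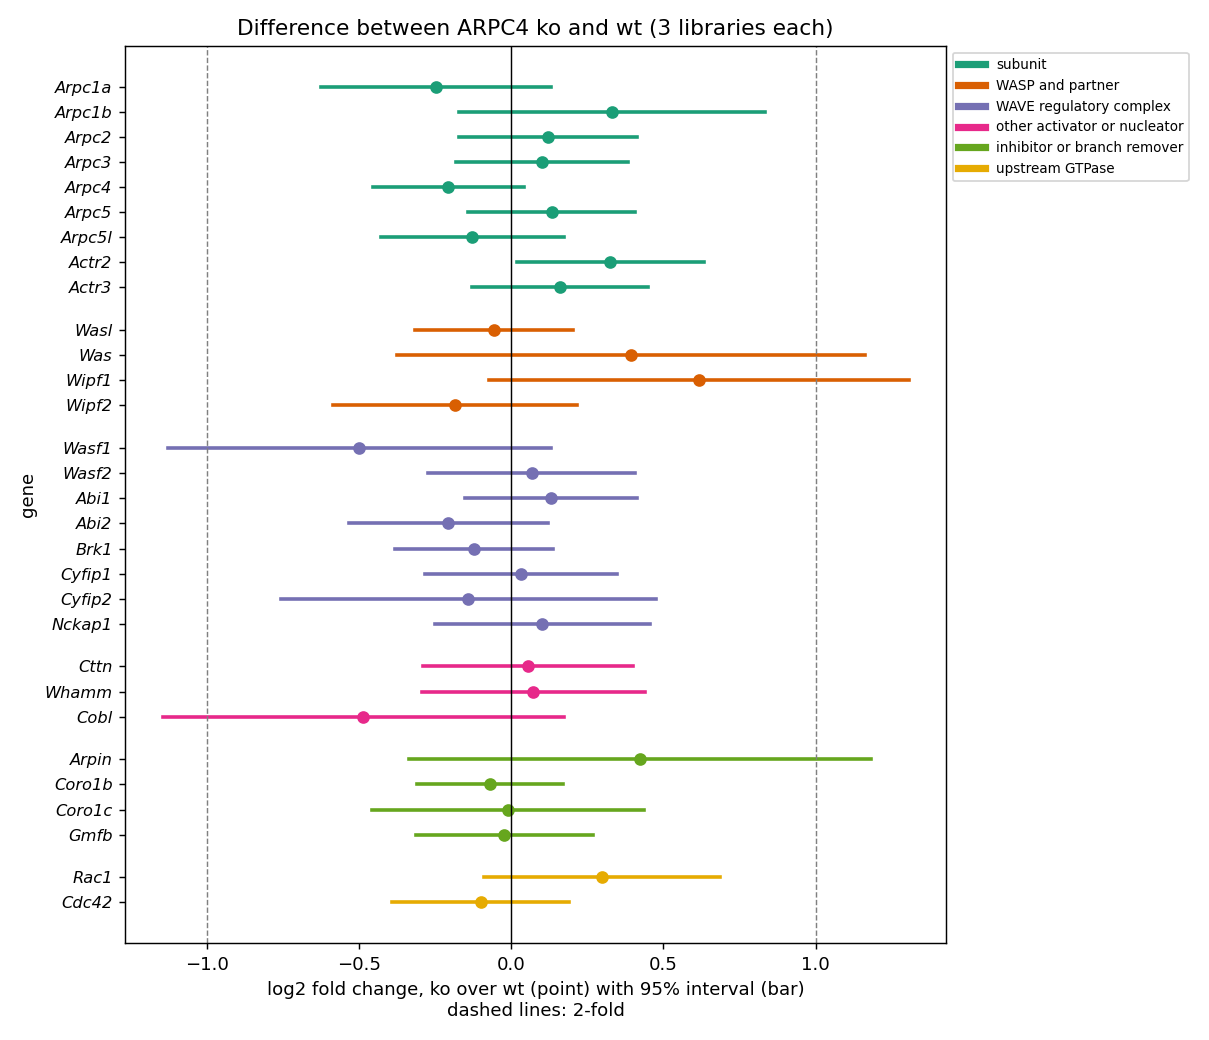
Log2 fold change of ko over wt for the 30 tested genes (points) with 95% intervals (bars), coloured by role, from 3 libraries per group. The intervals of all genes except Actr2 cross 0, and the dashed lines at 2-fold are passed by the intervals of Was, Wipf1, Wasf1, Cobl and Arpin.

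The libraries of the 2 groups did not overlap for 3 members. Actr2 and Wipf1 were higher in every ko library than in any wt library, as were 11.3% of all tested genes. Arpc4 was lower in every ko library, as were 8.03% of all tested genes. These shares are the background against which the 3 genes stand.

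Arpc4, the targeted gene, lies on the plus strand of chromosome 6 (ENSMUSG00000079426, 113378115 to 113390448). Its transcripts came to 72.5, 82.5 and 73.1 CPM in wt and 67.5, 65.6 and 64.5 CPM in ko. The ko values thus stood close together and just under the lowest wt value, with a log2 fold change of -0.21 (SE 0.10, 95% interval -0.46 to 0.04, edgeR adjusted p = 0.469). The lower end of that interval corresponds to a fall of less than 1.5-fold. Reads from parts of the gene that remain after a deletion are counted with the others, and which part was deleted is not given, so this level checks neither the deletion nor the protein.

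The end of Arpc4 is shared with its neighbour Ttll3, a tubulin glycine ligase gene on the same strand. Exons of the pair overlap over 283 bases, 12.2% of the 2321 exonic bases of Arpc4. The files list reads that overlap several genes separately for each chromosome. On chromosome 6 these ambiguous reads came to 273, 275 and 246 per 1000000 counts in genes in wt and to 213, 176 and 185 in ko. Unlike CPM, this scale takes all counts in genes and no TMM scaling. The groups did not overlap, with ko lower, and the mean dropped by 73.1 such reads, from 265 ± 16.2 to 191 ± 19.4 (SD, n = 3, 2-sided exact permutation p = 0.1, the smallest that 3 against 3 libraries can give). The percent change of -27.6 was the lowest of 21 chromosomes. Of the other chromosomes only 5 was also lower in every ko library, with a percent change of -14.6, and only 4 was higher in every ko library, with one of 19.8. Which genes on chromosome 6 these reads overlapped is not given, and their part in the level of Arpc4 was not tested. Ttll3 itself was counted at 2.91, 2.82 and 4.17 CPM in wt against 4.32, 4.02 and 6.35 in ko, with a log2 fold change of 0.57 (SE 0.28) and an adjusted p of 0.462.

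**Figure D3:**
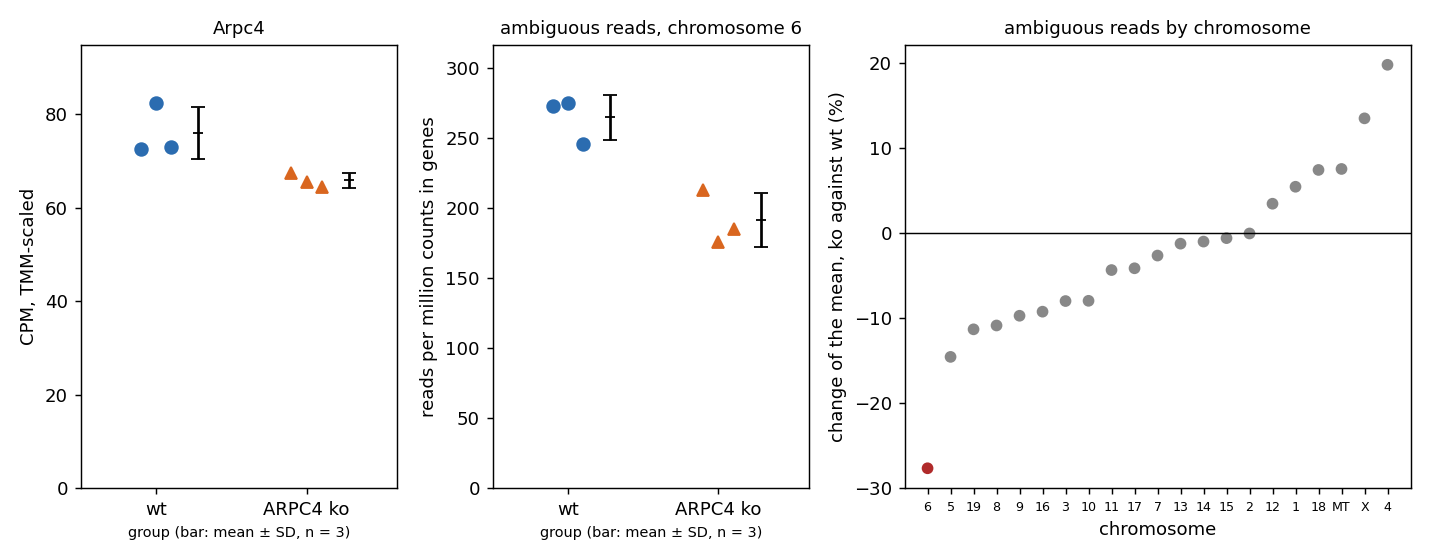
Left and middle, level of Arpc4 in CPM and reads overlapping several genes on chromosome 6 per 1000000 counts in genes (without TMM scaling), each point 1 library, with mean ± SD of 3 libraries. Right, percent change of the mean of such reads in ko against wt for 21 chromosomes, with chromosome 6 in red at -27.6%.

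Actr2 encodes Arp2, and among the subunits it had the smallest p. Its level was at 249, 262 and 256 CPM in the wt libraries and 292, 358 and 311 CPM in ko. The wt libraries lay close together and all ko libraries above them, with means of 256 ± 6.21 CPM for wt and 320 ± 33.7 CPM for ko (SD, n = 3). Its log2 fold change was 0.33 (SE 0.13, 95% interval 0.02 to 0.63), with an unadjusted edgeR p of 0.0403 and an adjusted p of 0.345. Actr3, encoding its partner Arp3, came to 196, 199.8 and 204 CPM in wt against 199.6, 238 and 233 in the ko libraries. Here the lowest ko library fell inside the wt range (log2 fold change 0.16, SE 0.12).

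Arpc2, whose product forms the core together with ARPC4, measured 239, 261 and 252 CPM in wt, and 249, 289.9 and 279 in ko. Arpc3 had 101, 119 and 118 CPM in the wt libraries, against 112, 123 and 127 in ko, and Arpc5 had 156, 168 and 167 CPM in wt against 164, 185 and 189 in ko. The groups of all 3 overlapped, with log2 fold changes of 0.12, 0.10 and 0.13. Arpc1a, at 133, 164 and 126 CPM in wt against 130.4, 126 and 100.3 in ko, had one of -0.25 (SE 0.16), and Arpc5l, at 75.3, 88.1 and 78.0 CPM in wt against 74.9, 80.7 and 65.5 in ko, had one of -0.13 (SE 0.13). Of the 9 tested subunit genes 6 were above 0 and 3 below, with a median of 0.12 and 0 passing the test.

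Per length of transcript, the subunit genes were far from equal in wt. Levels were taken as reads per kilobase of merged exons per 1000000 counts (RPKM). Arpc2 came first with 123 ± 5.41 RPKM, followed by Arpc5 with 71.8 ± 2.98, Arpc1a with 54.9 ± 7.79 and Actr2 with 49.1 ± 1.19 RPKM (SD, n = 3). Actr3 had 43.1 ± 0.81, Arpc3 40.8 ± 3.52, Arpc4 32.8 ± 2.42, Arpc5l 17.9 ± 1.5 and Arpc1b 8.37 ± 0.843 RPKM. Actr3b closed the order at 0.122 ± 0.0366 RPKM. Neighbours in this order whose wt libraries overlapped were Arpc1a and Actr2, and Actr3 and Arpc3. For all other neighbours the wt libraries did not overlap. Arpc4, the core subunit that was targeted, thus stood below its core partner Arpc2 in every library of both groups, at 31.3 to 35.6 RPKM against 118 to 129 in wt and at 27.8 to 29.1 against 122 to 143 RPKM in ko.

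The order depends in part on the length used. With the longest annotated transcript in place of merged exons, Arpc3 moved from the sixth place to the second, at 125 RPKM, and the median of the 10 subunit genes in wt went from 42.0 to 74.2 RPKM. Arpc2 stayed first, at 174 RPKM, and Arpc4, Arpc5l, Arpc1b and Actr3b kept the last places under both lengths. The 2 lengths were close for Arpc4, at 2321 and 2270 bases, and for Arpc5l, at 4498 and 4167. Without length, Arpc5l had a mean of 80.5 CPM in wt, above Arpc4 at 76.1. Reads in the 12.2% of exonic bases that Arpc4 shares with Ttll3 can be listed as ambiguous, so its level may be incomplete.

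The balance of the 2 ARPC1 forms was tilted to Arpc1a. Arpc1b supplied 13.3, 10.9 and 16.0% of the pair's summed RPKM in wt and 15.3, 14.6 and 26.4% in ko. A single library, ko replicate 3, lay above all others. Its Arpc1b was 71.8 CPM, against 39.9 to 47.8 CPM in the other 5 libraries together, and its Arpc1a was the lowest of all. The log2 fold change of Arpc1b was 0.33 (SE 0.21, adjusted p = 0.588) and was 0.03 without ko replicate 3. The sum of the pair was 63.2 ± 7.21 RPKM in wt and 56.8 ± 3.44 RPKM in ko, and the log2 ratio of Arpc1a to Arpc1b differed by -0.54 (2-sided exact permutation p = 0.3, adjusted over 11 pairs to 0.55) and by -0.20 without ko replicate 3.

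Arpc5l, whose product replaces ARPC5 in part of the complexes, supplied 19.7, 21.0 and 19.1% of the pair in wt and 18.7, 18.1 and 14.9% in ko. Every ko library had a smaller share of Arpc5l than any wt library, and the log2 ratio of Arpc5 to Arpc5l was higher in ko by 0.26. Its exact p of 0.1 is the smallest possible here and came to 0.367 after adjustment over the 11 pairs. The difference was 0.14 without ko replicate 3, the library with the lowest share, and 0.17 in the dated libraries alone. Of the 2 Arp3 genes, Actr3 supplied nearly all, with Actr3b at 0.213 to 0.473% of the pair in all libraries.

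**Figure D4:**
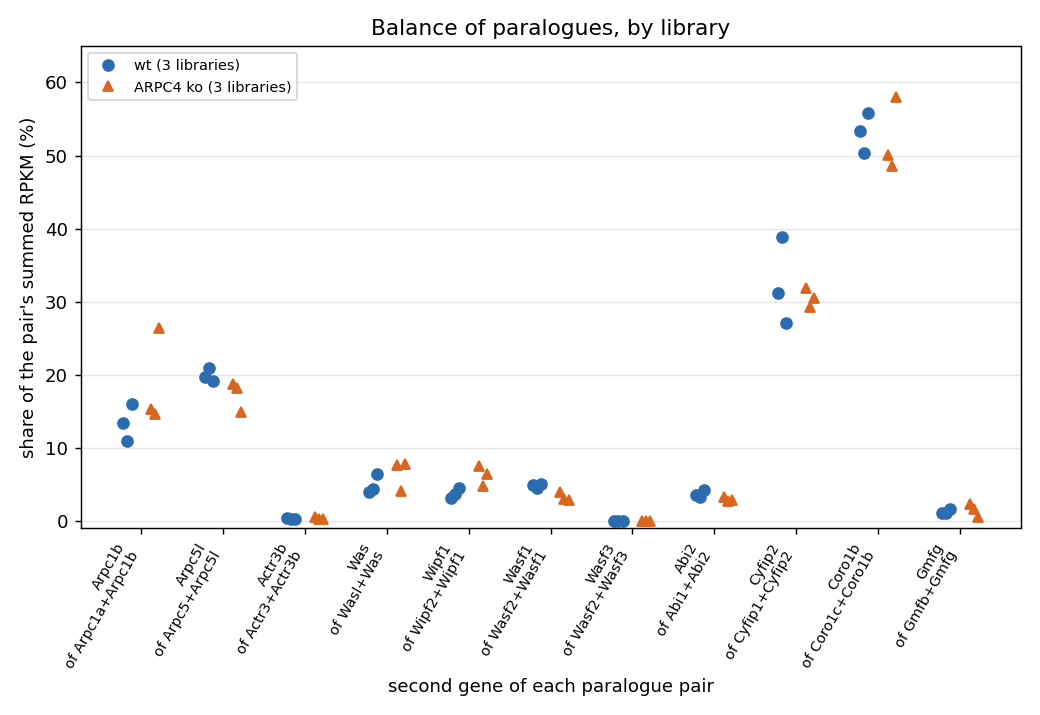
Share of the second gene in the summed RPKM of each of 11 pairs of related genes, in percent, each point 1 library, with wt as circles and ARPC4 ko as triangles. The groups do not overlap for Arpc5l, Wipf1 and Wasf1, and ko replicate 3 stands apart at 26.4% for Arpc1b.

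Over the 11 pairs 0 passed the exact test after adjustment, which with 3 libraries a group could not reach 0.05, and 3 pairs did not overlap between groups. For single genes, 19.4% of all tested did not overlap in either direction. Besides Arpc5 and Arpc5l these were Wipf2 with Wipf1 and Wasf2 with Wasf1. In both of these the scarce gene of the pair, at 3.04 to 4.89 CPM in wt, had the log2 fold change further from 0. The directions were opposite, at 0.62 for Wipf1 and -0.50 for Wasf1.

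WASP proteins are the activators that answer to Cdc42. Wasl, which encodes the widely made N-WASP, was at 112, 109 and 98.3 CPM in the wt libraries and 104, 106 and 96.9 CPM in ko. Its groups overlapped nearly fully (log2 fold change -0.06, SE 0.11). Was, which encodes the form of blood cells, was scarce at 1.76, 1.91 and 2.63 CPM in wt against 3.33, 1.77 and 3.15 in ko. Its log2 fold change was 0.39, and leaving out 1 library gave 0.23 to 0.62. The highest value of Was lay in ko replicate 1 and the lowest in wt replicate 1 and ko replicate 2.

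The WIP proteins bind WASP and N-WASP and keep them from breakdown. Wipf2 came to 124, 142 and 107 CPM in wt against 125, 113 and 90.1 in the ko libraries, with overlapping groups (log2 fold change -0.19, SE 0.17). Wipf1, the relative that is prominent in blood cells, measured 3.04, 4.04 and 3.85 CPM in wt, and 7.70, 4.32 and 4.67 in ko. All ko libraries lay above wt, with ko replicate 1 far above the others, and the log2 fold change was 0.62 (SE 0.29, adjusted p = 0.434). Leaving out ko replicate 1 took it to 0.30. The share of Wipf1 in the pair was 3.14, 3.65 and 4.54% in wt and 7.53, 4.82 and 6.43% in ko.

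The sum of the leukocyte markers was also highest in ko replicate 1, at 684 CPM, and lowest in wt replicate 1, at 261 CPM, and 13 of the 14 had a log2 fold change above 0 with a median of 0.45. Of these markers 0 passed the test with edgeR, DESeq2 or limma-voom and 0 reached an unadjusted p under 0.05 with any of them. Endothelial sums were higher in every ko library than in any wt library. So were fibroblast sums, but ko replicate 3, at 180 CPM, lay barely above wt replicate 3, at 177 CPM. The part of these cells in the levels of Was and Wipf1 was not tested.

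The WAVE regulatory complex carries the signal of Rac1. Its main genes were abundant. Wasf2, the main WAVE gene here, had 205, 209 and 165 CPM in the wt libraries, against 216, 207 and 183 in ko. Nckap1, whose product is a scaffold of the complex, was at 348, 371 and 300.1 CPM in the wt libraries and 344, 409.8 and 340.1 CPM in ko. Abi1, an adaptor, came to 186, 196 and 173 CPM in wt against 196, 219 and 194 in the ko libraries. In all 3 genes wt replicate 3 was the lowest of the 6 libraries and the groups overlapped.

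Cyfip1, whose product binds Rac1, measured 192, 207 and 169 CPM in wt, and 190.4, 210.3 and 179 in ko. The small subunit gene Brk1 had 76.9, 90.6 and 82.7 CPM in the wt libraries, against 77.4, 78.7 and 73.8 in ko. Neither group stood apart for these genes, with log2 fold changes of 0.03 (SE 0.13) and -0.12 (SE 0.11). Of the 8 tested genes of the complex 4 were above 0 and 4 below, with a median of -0.05.

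The relatives of Wasf2, Abi1 and Cyfip1 are best known from nerve cells. Wasf1 was at 4.89, 4.47 and 3.94 CPM in the wt libraries and 4.13, 2.84 and 2.41 CPM in ko. Its CPM overlapped by a single ko library (log2 fold change -0.50, SE 0.26, adjusted p = 0.497), while its share of the pair with Wasf2 was smaller in every ko library, at 4.97, 4.48 and 4.99% in wt and 4.01, 2.92 and 2.81% in ko. Wasf3 was nearly absent, with 0 to 0.0591 CPM. Abi2 came to 14.6, 14.1 and 16.0 CPM in wt against 14.1, 12.6 and 12 in the ko libraries, a share of 3.68 ± 0.453% of the Abi pair in wt and 2.93 ± 0.33% in ko.

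Among the pairs of the WAVE complex, Cyfip2 was the relative with the largest share, 31.2, 38.9 and 27.1% of the Cyfip pair in wt and 31.9, 29.3 and 30.5% in ko. Its level was 51.8, 78.2 and 37.2 CPM in the wt libraries, against 52.9, 51.9 and 46.8 in ko. The wt libraries spread over more than the whole range of ko, with wt replicate 2 highest and wt replicate 3 lowest.

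Of the other activators Cobl stood out by its level. Cobl, or cordon-bleu, binds actin monomers and nucleates filaments by itself, and is best known from brain and from the brush border of the gut. In these samples it was the member with the highest CPM, at 708, 779 and 423 in wt and 547, 468 and 349 in ko. It held this place in each of the 6 libraries. Per kilobase of merged exons it reached 78.2 ± 23.2 RPKM in wt, a mean above those of all subunit genes but Arpc2, and 55.8 ± 12.2 RPKM in ko. In wt replicate 3 it was at 51.9 RPKM, below Arpc5 at 73.3. By the longest transcript its wt mean was 113 RPKM, below Arpc3 at 125, so its place depends on the length used. The groups overlapped through wt replicate 3, and the log2 fold change was -0.49 (SE 0.28, 95% interval -1.14 to 0.17, adjusted p = 0.537). It was -0.32 without wt replicate 2 and -0.73 without wt replicate 3. Among all members and alternative fits of ko against wt, its adjusted p was the lowest reached, 0.0712, with a term in the fit for whether the title carries a date.

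Cttn, or cortactin, which holds branches in place, measured 208, 219.5 and 178 CPM in wt, and 207, 235 and 187 in ko. Whamm, an activator on membranes of the Golgi and its vesicles, had 10.9, 11.1 and 10.2 CPM in the wt libraries, against 12, 12 and 9.76 in ko. Both had overlapping groups, with log2 fold changes of 0.06 (SE 0.15) and 0.07 (SE 0.15).

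Arpin copies the end of the WAVE proteins with which they touch the complex and so holds it idle. It was at 14.6, 7.98 and 16.0 CPM in the wt libraries and 13.5, 15.1 and 23.3 CPM in ko. The single low library was wt replicate 2 and the single high one ko replicate 3, and the log2 fold change of 0.42 (SE 0.32, adjusted p = 0.664) was 0.18 without the first and 0.12 without the second.

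Coronins help to take branches apart, and GMF proteins cut them off. Coro1b came to 102, 109 and 99.5 CPM in wt against 99.5, 96.1 and 100.3 in the ko libraries. Coro1c measured 269, 325 and 238 CPM in wt, and 299, 308 and 219.7 in ko, and Gmfb came to 78.9, 70.6 and 82.6 CPM in wt against 68.0, 79.3 and 81.2 in ko. The log2 fold changes were -0.07, -0.01 and -0.02, with SE of 0.10, 0.19 and 0.12. Gmfg, the form of blood cells, was counted at only 0.157 to 0.646 CPM and was not tested. Exons of Coro1b overlap those of Ptprcap on the same strand over 13.5% of their length, those of Arpc1b overlap Pdap1 on the opposite strand over 18.2% and those of Cyfip1 overlap Nipa2 on the opposite strand over 11.0%.

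Per length the 2 coronins were near parity by merged exons, with Coro1b at 53.1 ± 2.73% of the pair in wt and 52.2 ± 5.06% in ko. By the longest transcript Coro1b had 40.7% in wt, so which of them is the more abundant depends on the length used.

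The GTPases that start the signal were abundant. Rac1 had 191, 196 and 244 CPM in the wt libraries, against 232, 244 and 299.8 in ko. Replicate 3 was the highest in both groups, and the log2 fold change was 0.30 (SE 0.16, adjusted p = 0.513). Exons of Daglb on the opposite strand overlap 51.4% of those of Rac1, and the strand option of the counting is not given, so reads of the pair cannot be told apart with certainty. Daglb was counted at 6.33 to 12 CPM. Without ko replicate 3 the log2 fold change of Rac1 was 0.15. Cdc42 was at 335, 378 and 357 CPM in the wt libraries and 319, 351 and 328 CPM in ko, with overlapping groups (log2 fold change -0.10, SE 0.12). Its 120 ± 7.23 RPKM in wt was the second level of all 33 genes by merged exons, with wt libraries that overlap those of Arpc2.

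Levels were also set beside those of basal cell markers. With the mean log2 CPM of the 10 basal markers added to the model beside group, a step added after the values had been seen, 1 member rose and 1 fell with it. Among all tested genes 12.1% rose and 5.36% fell, so the 6.67% of members that passed in either direction lay below the 17.4% of all genes. The marker mean was 8.14, 5.55 and 8.70 in wt and 6.86, 7.13 and 8.86 in ko. Arpin rose by 0.34 log2 units per unit of the marker mean (SE 0.05, edgeR adjusted p = 0.00491), and it passed without any 1 of the 6 libraries, with adjusted p of 0.0067 to 0.0378. Both the marker mean and Arpin were highest in replicate 3 of each group, the libraries without a date in the title. Each of these fits kept at least 1 replicate 3 library, and the part of the kind of title in this coefficient was not tested. Cyfip2 had a coefficient of -0.24 (SE 0.06, adjusted p = 0.0325).

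The Cyfip2 coefficient did not pass without wt replicate 2 (adjusted p = 0.397), wt replicate 3 (0.146), ko replicate 1 (0.0673) or ko replicate 2 (0.0634). The number of members that followed the basal markers was 6 of 30 without wt replicate 1, where 26.4% of all genes passed. It was 1 without wt replicate 3, ko replicate 1 or ko replicate 2, where 5.47%, 7.53% and 9.05% of all genes passed. It stayed at 2 without wt replicate 2 or ko replicate 3, beside 11.3% and 5.76% of all genes. Arpc1a and Coro1c, with -0.14 and -0.16, missed the threshold at an adjusted p of 0.0541 each, and Cobl, with -0.23, had 0.0821. Arpc1b had a coefficient of 0.15 (adjusted p = 0.153), opposite in sign to that of Arpc1a.

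**Figure D5:**
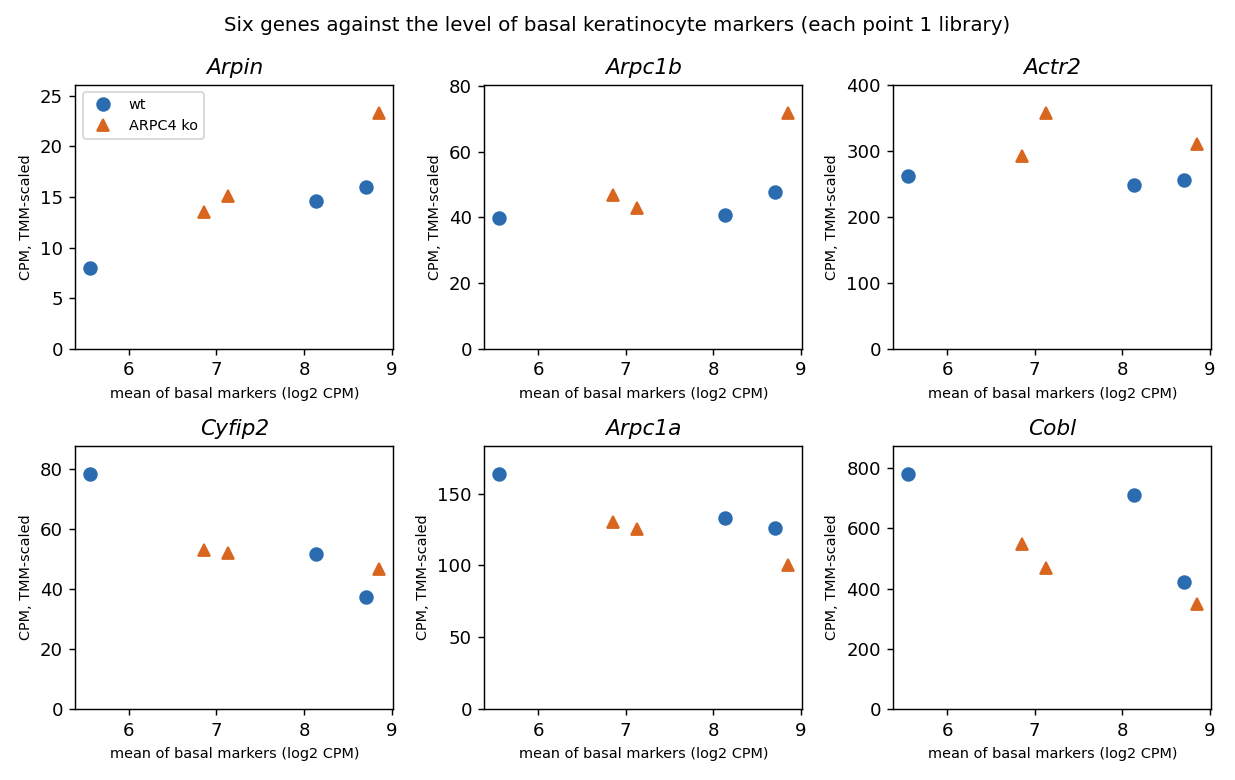
Level of 6 members in CPM against the mean log2 CPM of 10 basal keratinocyte markers, each point 1 library, with wt as circles and ARPC4 ko as triangles and all vertical axes starting at 0. Arpin is lowest and Cyfip2 highest in wt replicate 2, the library with the lowest marker mean of 5.55. All ko libraries of Actr2, at marker means of 6.86 to 8.86, lie above all wt libraries, at marker means of 5.55 to 8.70.

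Further genes of the machinery were taken from a list of other Arp2/3 activators and partners, of which 18 of 19 were found and tested. With edgeR and limma-voom 0 passed, and DESeq2 called 1, while each tool had 2 at an unadjusted p under 0.05. Beside this, DESeq2 called 4.81% of all tested genes, and 13.2% reached that unadjusted level with edgeR. The median log2 fold change of the list was 0.10. Cobll1, a relative of Cobl, came to 24.4, 28.2 and 25.6 CPM in wt against 40.6, 43.9 and 46.3 in the ko libraries. Its groups were well apart (log2 fold change 0.74, SE 0.11), with an adjusted p of 0.0688 by edgeR and 0.000143 by DESeq2. Cobll1 was higher in every ko library, as were 11.3% of all tested genes. Cobl itself had a log2 fold change of -0.49 with overlapping groups.

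Nckap1l, the relative of Nckap1 in blood cells, measured 6.08, 7.55 and 10.4 CPM in wt, and 15.9, 11.1 and 12.6 in ko, with a log2 fold change of 0.72 (SE 0.25) and an adjusted p of 0.285. Coro1a, the coronin of blood cells, had 12.5, 17 and 18.8 CPM in the wt libraries, against 29.6, 16.5 and 21.2 in ko. As with Was and Wipf1, both were highest in ko replicate 1, the library with the highest leukocyte sum, and lowest in wt replicate 1, the library with the lowest. The leukocyte sum was 321 CPM in ko replicate 2 and 549 in wt replicate 3. Between these libraries Wipf1 (4.32 against 3.85 CPM) and Nckap1l (11.1 against 10.4) were higher in ko replicate 2. Was (1.77 against 2.63 CPM) and Coro1a (16.5 against 18.8) were lower there, and the part of leukocytes was not tested. Coro1a is itself 1 of the leukocyte markers.

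Of 26 genes of upstream signalling 0 passed with edgeR and limma-voom, with 2 at an unadjusted p under 0.05 by either. By DESeq2 there was 1 call, with 3 unadjusted. Of all tested genes DESeq2 called 4.81%, and edgeR put 13.2% under that unadjusted level. The median of the 26 was 0.04. Rhoj, a relative of Cdc42 that is prominent in endothelium, was at 1.01, 1.01 and 1.13 CPM in the wt libraries and 2.49, 2.72 and 2.57 CPM in ko, with a log2 fold change of 1.29 (SE 0.23) and an adjusted p of 0.0866. Rhoj was higher in every ko library, as were 11.3% of all tested genes. The endothelial marker sum was likewise higher in every ko library, at 19.7, 22.2 and 10.7 CPM against 3.74, 3.08 and 4.04 in wt. Its part in the level of Rhoj was not tested. Elmo2, which helps to activate Rac1, came to 29.9, 30.9 and 30.7 CPM in wt against 35.3, 37.0 and 41.6 in the ko libraries (log2 fold change 0.32, SE 0.11, adjusted p = 0.288). Vav3, an exchange factor for Rac1, had a log2 fold change of 0.24 (SE 0.10, adjusted p = 0.38).

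Actin itself and the proteins that turn filaments over were measured with 23 tested genes, of which 0 passed with edgeR and limma-voom, each with 3 at an unadjusted p under 0.05. By DESeq2 there were 2 calls. DESeq2 called 4.81% of all tested genes, and 13.2% of them had an unadjusted edgeR p under 0.05. The 23 genes had a median log2 fold change of 0.05. Actb had means of 1882 ± 98.1 in wt and 1585 ± 189.8 CPM in ko, and Actg1 of 1522 ± 154.9 and 1352 ± 79.0 CPM (SD, n = 3), with log2 fold changes of -0.25 (SE 0.17) and -0.17 (SE 0.16). Actb was lower in every ko library than in any wt library, as were 8.03% of all tested genes, while the groups of Actg1 overlapped. Pfn2, a profilin that feeds monomers to growing filaments, measured 26.4, 33.6 and 29.1 CPM in wt, and 20.4, 15.3 and 16.9 in ko. It was lower in every ko library, as were 8.03% of all tested genes. Its log2 fold change was -0.76 (SE 0.16, adjusted p = 0.112 by edgeR and 0.0048 by DESeq2).

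Enah and Vasp, relatives that lengthen filaments without branching them, had log2 fold changes of 0.82 (SE 0.19, adjusted p = 0.14) and 0.41 (SE 0.16, adjusted p = 0.324). Enah had 72.2, 67.5 and 56.1 CPM in the wt libraries, against 106, 145 and 94.5 in ko. Every ko library lay above wt, as for 11.3% of all tested genes, and DESeq2 called Enah (adjusted p = 0.0133).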

How the data were processed

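The deposited files hold raw, unscaled counts per Ensembl gene for 3 wt and 3 ARPC4 ko libraries of mouse epidermis. Per the submitters' processing notes, TopHat2 2.0.12, Bowtie 1.1, HTSeq and the mm10 build were used. The strand option of counting and the tool settings were not found in the labels, though per the labels' protocols the library kit was stranded and reads were 51 bp single-end. Reads not assigned to a gene (ambiguous, with several alignments or outside genes) were left out of library sizes and of all tests. Those with several alignments made up 32.4 to 40.9%, ambiguous reads 0.38 to 0.499% and reads outside genes 0.341 to 0.377% of all reads listed.

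Of 41214 identifiers, 40254 matched a symbol and coordinates in GENCODE M21. Members were matched by symbol and grouped by role. The members and the 9 gene lists were chosen with earlier results of these data known. The text names all members, Actb and Actg1, and from each list up to 3 genes with the smallest p.

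Counts were filtered with filterByExpr (13704 genes), scaled by TMM and tested by edgeR 4.0.16 (quasi-likelihood, robust, group only) in R 4.3.3, with Benjamini-Hochberg adjustment at 0.05. Standard errors were computed from the log2 fold change and the F statistic, and intervals are 95%. CPM use TMM-scaled library sizes. RPKM are CPM per kilobase of merged exons. Ratios of related genes used counts + 0.5 per kilobase and 2-sided exact permutation over libraries, adjusted over 11 pairs. Alternatives were DESeq2 1.42.0, limma-voom (limma 3.58.1), 2 other scalings, no filter, a replicate block, the title date, a basal marker covariate, a pseudocount of 2, transcript length and leaving out each library. The coefficient of the basal marker mean was added after seeing the data. The procedure was tested on simulated data. As the labels do not tie replicates to separate animals, p-values reflect only the spread among these libraries, which may be technical. Every pair of libraries in a group differed by more than sampling noise (24.4 to 105.5 chi-square units per degree of freedom). Each library was counted as 1 sample, though such a spread does not show that libraries are independent. Counting error is small for genes of over 10 CPM and large for those under 1 CPM.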

Additional observations from a re-analysis of the deposited data

How the results depend on the processing

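Of the 33 genes 0 passed under any of the 15 alternative fits, and 23 of 30 kept their direction in all of them. Among 450 alternative log2 fold changes 15 changed sign, 11 of them when a library was left out, and their cause was not tested. Cyfip1 was at -0.00096 with total counts and -0.0218 in the dated libraries alone, and Coro1c at 0.0014 in the dated libraries and 0.0109 with the basal marker covariate. Leaving out 1 library gave -0.0064 to 0.15 for Arpc3, -0.0484 to 0.13 for Wasf2, -0.0603 to 0.10 for Cyfip1, -0.38 to 0.18 for Cyfip2, -0.0418 to 0.12 for Cttn, -0.13 to 0.12 for Coro1c and -0.10 to 0.053 for Gmfb. The median of the members ran from -0.0451 without wt replicate 3 to 0.12 without wt replicate 2. The log2 ratio of Gmfb to Gmfg was -0.0559 with a pseudocount of 2 and -0.79 in the dated libraries, and -0.63 to 0.44 with a library left out. That range was -0.66 to 0.47 for Wasf2 to Wasf3, -0.10 to 0.29 for Cyfip1 to Cyfip2, -0.37 to 0.14 for Actr3 to Actr3b and -0.0522 to 0.22 for Coro1c to Coro1b. The median subunit level in wt was 74.2 RPKM by longest transcript and 42.0 by merged exons. Members that followed the basal markers numbered 1 to 6 with a library left out, where 5.47 to 26.4% of all genes did.

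The number of all genes called, 30 (all higher in ko), depended on the fit. It was 57 with no filter, 709 with the title date as a covariate, 217 in the dated libraries, 851 with the basal covariate, 659 with DESeq2, 0 with limma-voom (1748 at an unadjusted p under 0.05) and 0 to 54 with a library left out. The replicate number as a block gave 354 (254 higher, 100 lower) and 0 members. Same-numbered libraries correlated in their deviations from the group means at -0.19, 0.47 and 0.67, and not every library correlated best with its own number (wt replicate 2 with ko replicate 1 at 0.51), so the numbers were not taken as pairs. The replicate 3 libraries also share a kind of title. With ko replicates 1 and 2, wt replicate 3 correlated at -0.42 and -0.53. Deviations within a group sum to 0 for each gene, so these negative values follow from the 0.67 and add nothing to it. Depth limits the genes under 1 CPM, here Actr3b, Wasf3 and Gmfg.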
